A study of Mus musculus with 4 samples.

Results

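The miRNAs described here are mouse miRNAs of the late-numbered block of miRBase names from mmu-miR-6881 to mmu-miR-7093. A name belonged to the set when it reached at least 0.5 RPM (reads scaled to a library total of 1000000 reads on listed miRNAs) in the library of ES cells kept in serum. This held for 48 of the 400 names listed in the block, out of 1907 listed mature miRNAs in all. The 400 names are the 5p and the 3p arm of 200 hairpins. Of the 48 members, 34 were 3p arms and 14 were 5p arms, and they came from 46 hairpins. The remaining 352 names stayed below 0.5 RPM, and 252 of them had 0 reads in that library. Among the 1507 listed names outside the block, 706 (46.8%) reached the same level, against 12% of the block. The level in serum ES cells chose the members, so it is given below as a description, and comparisons with that library support nothing about them.

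Small RNA was sequenced from E14Tg2A, a mouse embryonic stem (ES) cell line of the 129/Ola strain, and from epiblast-like aggregates (ELA) made from it. ES cells at day 0 had been grown in 10% fetal calf serum with leukemia inhibitory factor (LIF, 1000 U/mL; "serum") or in serum-free N2/B27 medium with LIF, 1 µM of the MEK inhibitor PD0325901 and 3 µM of the GSK3 inhibitor CHIR99021 ("2iL"). ELA had then floated for 2 days in a chemically defined minimal medium (CDMM), to which the protocol adds no LIF, and their medium name is that of the ES cells they came from. Each of the 4 combinations was 1 library of RNA pooled from 3 sets of experiments, so there are no replicates and no value below has a replicate check.

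The libraries held 8056984 (serum ES), 2767016 (2iL ES), 4309257 (serum ELA) and 587363 (2iL ELA) reads on listed miRNAs, a range of 13.7-fold. A single read was therefore worth 0.124 RPM in serum ES and 1.70 RPM in 2iL ELA, and 3 reads, the smallest count taken here as detected, corresponded to 0.372, 1.08, 0.696 and 5.11 RPM. The 5 miRNAs used as markers of pluripotent cells (miR-291a-3p, miR-294-3p, miR-295-3p, miR-302a-3p and miR-302d-3p) summed to between 65441 and 142256 RPM. Of 7 markers of neural, muscle, blood and liver cells, mmu-miR-122-5p had 0 reads in every library and mmu-miR-142-3p matched no listed name. The 6 that matched summed to between 303 and 436 RPM, most of it mmu-miR-9-5p, and their part in the results was not tested. The pluripotency markers mmu-miR-302a-3p and mmu-miR-302d-3p measured 14.8 and 27.5 RPM in 2iL ES and 8176 and 16726 RPM in serum ELA, the libraries that a description field of the labels exchanges. Groups were taken from the titles and not from these values.

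Most miRNAs are cut from the stem of a long primary transcript by the nuclear enzyme Drosha and then from the hairpin by Dicer. Mirtrons take another route: the hairpin is a short intron, or one side of it is an intron end, and the spliceosome makes the cut in place of Drosha. Because introns end in AG, a 3p arm at the 3′ end of an intron ends in AG too. Bases 2 to 8 of the mature strand, the seed, pair with target mRNAs.

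The sequences below are RefSeq mature sequences. They belong to the members highest over the libraries that the rule did not use or highest in serum ES, and a pair of 5p strands from below the threshold shows the opposite side of 2 hairpins, which had 0 or 1 reads. The seed is in capitals.
mmu-miR-7068-3p: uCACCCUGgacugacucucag
mmu-miR-7068-5p: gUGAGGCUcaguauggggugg
mmu-miR-6944-3p: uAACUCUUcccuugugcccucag
mmu-miR-6944-5p: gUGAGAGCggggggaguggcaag
mmu-miR-6896-5p: uUUGUAGGcgacgagaacccgu
mmu-miR-6948-3p: uGUCCUUCcugucugaccaca
mmu-miR-6958-3p: uCAGCUGCcucuugccaucacag
mmu-miR-6960-5p: cAGGAUGAgaagaguuuggcug
mmu-miR-6988-3p: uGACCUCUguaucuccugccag
mmu-miR-6992-5p: uGCCUGUGaugguuuggcugagu
mmu-miR-7006-3p: uUUCUGACcuggauccccag
mmu-miR-7018-3p: uCACCCUGcugccggcuugcag
mmu-miR-7075-3p: cAACCAUGucuucuuucccag

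The 3p strands in this group are rich in C and U, and most end in cag, while the 5p strands of mir-7068 and mir-6944 begin with gug, which starts with the GU that opens most introns. mmu-miR-7068-3p and mmu-miR-7018-3p have the same seed, CACCCUG, and mmu-miR-7023-3p shares it too. mmu-miR-7023-3p reached 0.372 RPM in serum ES and had 0 reads elsewhere. The members mmu-miR-6960-5p and mmu-miR-7093-5p share AGGAUGA. RefSeq sequences were matched by name for 43 of the 48 members. mmu-miR-6913-3p, mmu-miR-6951-5p, mmu-miR-6952-3p, mmu-miR-6956-3p and mmu-miR-6979-3p were not matched. Of the 43, 42 occurred once in the mm9 (NCBI37) genome and mmu-miR-6967-3p occurred at several places, which leaves its count uncertain. None of the 43 was closer than 4 mismatches to another listed miRNA over the aligned bases.

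All 43 placed members lay inside introns of annotated genes, on the strand of the host gene, in 41 hosts. Of these, 4 of the 30 3p members and 1 of the 13 5p members also overlapped a noncoding or UTR exon of another annotated transcript on the same strand. The 3p members sat at intron ends. Of the 30 placed 3p members, 28 (93.3%) ended within 2 bases of the 3′ end of the intron and 25 ended exactly there. The exceptions were mmu-miR-6977-3p in Ptprs, 19 bases before the end, and mmu-miR-7084-3p in Elof1, 7 bases before it. Correspondingly, 25 of the 30 (83.3%) ended in AG and 21 in CAG. The 3p names below the threshold had the same position, with 136 of 146 (93.2%) within 2 bases of the end and 113 (77.4%) ending in AG. Of the other listed 3p names, 34 of 504 placed (6.75%) lay within 2 bases of an intron end and 56 of 506 (11.1%) ended in AG. The position was shared by the block and was not particular to the members.

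**Figure D1:**
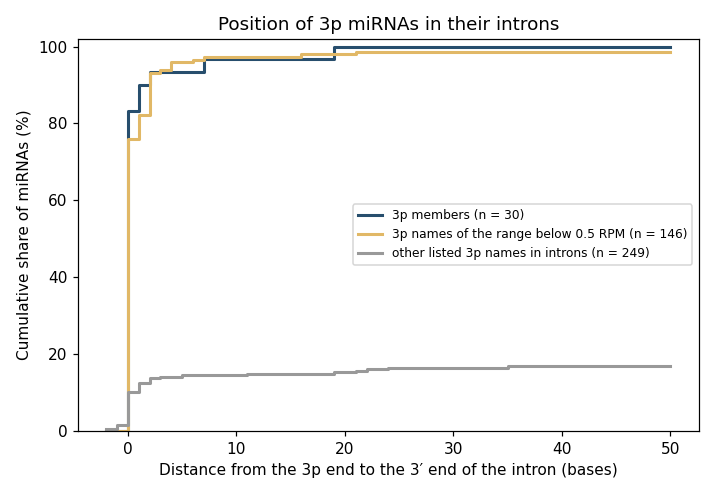
Cumulative share of intronic 3p miRNAs (percent, y axis) by the distance in bases from their last base to the 3′ end of the intron (x axis), for the 30 placed 3p members, the 146 placed 3p names of the block below 0.5 RPM and the 249 other intronic 3p names. Both curves of the block reach about 93% at 2 bases, and the curve of the other names stays below 20%.

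Members and names of the block below the threshold had other features that are given as counts, without a test. Introns of up to 100 bases held 12 of 30 3p members (40%) and 24 of 146 3p names below the threshold (16.4%). Their median intron lengths were 376.5 and 520 bases, against 4376 bases for the other intronic 3p names. A U was the first base of 24 of 30 3p members (80%) and of 71 of 146 names below the threshold (48.6%). The median share of C and U was 71.4% in the 3p members and 38.1% in the 5p members. None of the 13 placed 5p members began within 2 bases of an intron's 5′ end, and 10 of them ended 31 to 58 bases before its 3′ end.

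An arm of 32 of the 200 hairpins had no matched sequence, mir-7006 among them, and these were not classed. In 10 of the other 168 the 5p arm began and the 3p arm ended within 2 bases of the intron's ends, so that the hairpin was the whole intron. These introns had a median length of 84 bases. A member came from 6 of the 10: mir-6944, mir-6958, mir-7018, mir-7068, mir-7070 and mir-7082. In another 146 hairpins the 3p end alone met the intron end, with a median intron length of 559.5 bases, and 31 of them (21.2%) gave a member. The 10 whole-intron hairpins carried 1740 of the block's 2453 reads in serum ES (70.9%), 894 of 1350 in 2iL ES (66.2%), 502 of 765 in serum ELA (65.6%) and 131 of 174 in 2iL ELA (75.3%). Without mir-7068 and mir-6944 they held 41, 66, 12 and 6 reads, so these shares rested on that pair of hairpins.

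The level of the members was low apart from 2 of them. mmu-miR-7068-3p and mmu-miR-6944-3p exceeded 10 RPM in serum ES, and 45 members lay below 4 RPM. The median member stood at 1.24 RPM in serum ES, 1.81 in 2iL ES, 0.696 in serum ELA and 0 in 2iL ELA. The 706 names outside the block that passed the same threshold had medians of 17.4, 23.3, 17.4 and 21.3 RPM in these libraries.

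**Figure D2:**
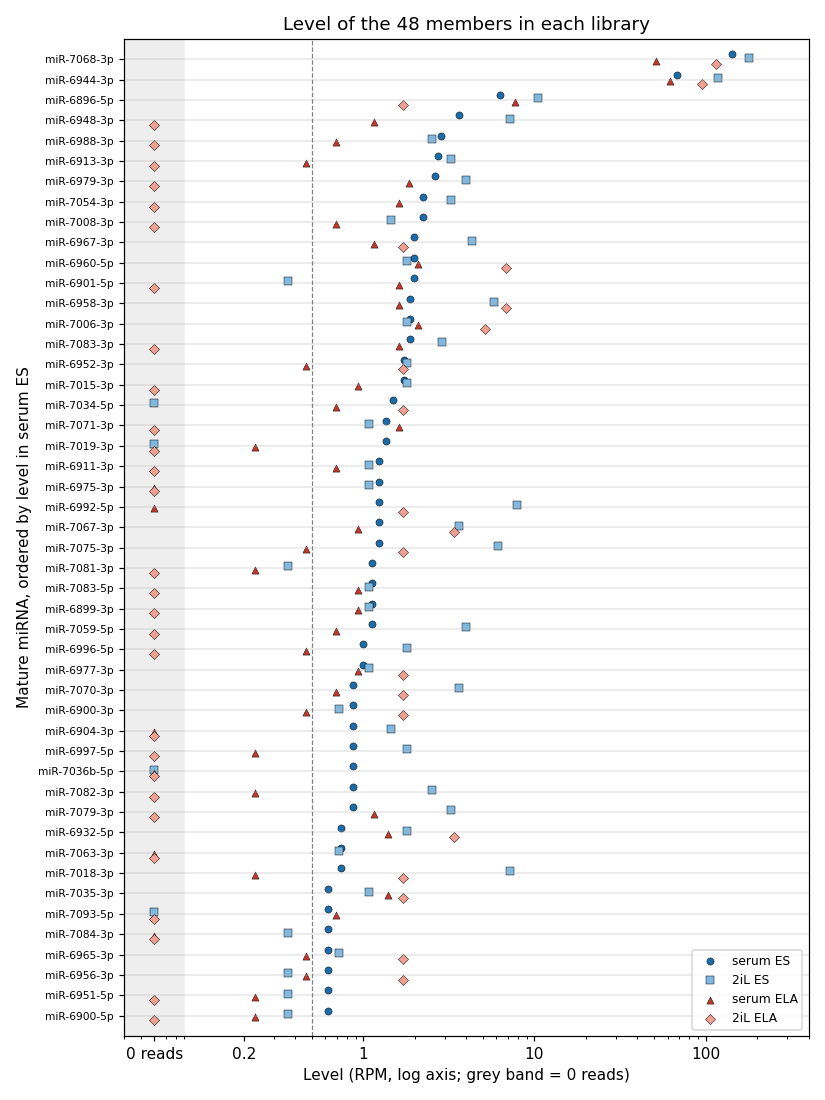
Level of each of the 48 members (RPM, log axis) in the 4 libraries, 1 point per library, ordered by level in serum ES, with the 0.5 RPM threshold dashed and 0 reads in the grey band. miR-7068-3p and miR-6944-3p stand above 50 RPM in every library, and 28 of 48 members have 0 reads in 2iL ELA.

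mmu-miR-7068-3p was the most abundant member in 3 of the 4 libraries. It is encoded at chr8:74993915-74993935 on the minus strand (mm9), where it ends a 74-base intron of Cherp, a gene for a protein linked to calcium release and pre-mRNA splicing. Its level was 142 RPM in serum ES (1147 reads), 181 in 2iL ES (500 reads), 51.5 in serum ELA (222 reads) and 116 in 2iL ELA (68 reads). The serum ELA library was the lowest. The order of the ES libraries depends on the scaling, as given below. Its 5p partner, which begins the same intron, had 0 reads in all 4 libraries. The study named mmu-miR-7068-3p as lower in ELA from these same libraries, so its fall is not independent evidence.

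mmu-miR-6944-3p, at chr13:55579042-55579064 on the minus strand, ends a 96-base intron of Dbn1, the gene of the actin-binding protein drebrin. It measured 68.5 RPM in serum ES (552 reads), 119 in 2iL ES (328 reads), 62.2 in serum ELA (268 reads) and 95.3 in 2iL ELA (56 reads). Both 2iL libraries were above both serum libraries. The 2iL minus serum difference in log2(RPM + 1) was 0.78 between the ES libraries and 0.61 between the ELA libraries. With libraries scaled by TMM factors in place of their totals these were 0.30 and 0.26, and with DESeq2 factors 0.39 and 0.25. Relative to the median miRNA of each pair they were 0.27 and 0.28. In serum ELA mmu-miR-6944-3p exceeded mmu-miR-7068-3p.

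mmu-miR-6896-5p was the most abundant 5p member except in 2iL ELA, where mmu-miR-6960-5p and mmu-miR-6932-5p had 4 and 2 reads and it had 1. It lies at chr1:34174209-34174230 on the plus strand, 46 bases before the end of a 1236-base intron of Dst, which encodes a cytoskeletal linker. Its level was 6.33, 10.5, 7.66 and 1.70 RPM in serum ES, 2iL ES, serum ELA and 2iL ELA, from 51, 29, 33 and 1 reads. The 3p arm of its hairpin had 0 of 114 reads over the 4 libraries (exact 95% limit 3.18%), although it sits at the intron end. The level was lowest in 2iL ELA, where it rests on a single read.

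mmu-miR-6948-3p lies in Acin1, the gene of a chromatin-condensation and splicing factor, at chr14:55261887-55261907 on the minus strand. It had 29 reads in serum ES, 20 in 2iL ES, 5 in serum ELA and 0 in 2iL ELA, or 3.60, 7.23, 1.16 and 0 RPM. The ELA libraries were below the ES libraries, but 0 reads in 2iL ELA allow a level of up to 5.11 RPM. mmu-miR-6988-3p, from chr19:6051371-6051392 in the ubiquitin ligase gene Syvn1, had 23, 7, 3 and 0 reads in the same order.

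A further group was highest in 2iL ES. mmu-miR-6992-5p, from chr19:8817466-8817488 in the Golgi syntaxin gene Stx5a, had 10 reads in serum ES, 22 in 2iL ES, 0 in serum ELA and 1 in 2iL ELA. mmu-miR-7018-3p, at chr4:137094264-137094285 in Hspg2, the gene of the matrix proteoglycan perlecan, had 6, 20, 1 and 1 reads. mmu-miR-7075-3p, at chr8:109619925-109619945 in the telomere-binding gene Terf2, had 10, 17, 2 and 1 reads. In RPM their 2iL ES levels were 7.95, 7.23 and 6.14, and every other library was at or below 1.70 RPM for each of them.

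mmu-miR-6958-3p (Fam116b, chr15:89015895-89015917), mmu-miR-6960-5p (Troap, chr15:98911241-98911262) and mmu-miR-7006-3p (Znf512b, chr2:181322605-181322624) were the only other members with at least 3 reads in 2iL ELA. Their reads in serum ES, 2iL ES, serum ELA and 2iL ELA were 15, 16, 7 and 4 for mmu-miR-6958-3p. They were 16, 5, 9 and 4 for mmu-miR-6960-5p and 15, 5, 9 and 3 for mmu-miR-7006-3p. The 2iL ELA counts correspond to 6.81, 6.81 and 5.11 RPM, nominally the highest of the 4 libraries for each, on 3 or 4 reads. mmu-miR-7081-3p, singled out after its values were seen because it lies in an intron of Dnmt1, the gene of the maintenance DNA methyltransferase, had 9, 1, 1 and 0 reads.

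mmu-miR-7079-3p, the other arm of a name just below the threshold, had 7 reads in serum ES, 9 in 2iL ES, 5 in serum ELA and 0 in 2iL ELA, and mmu-miR-7093-5p had 5, 0, 3 and 0. The 31 members outside the named set, mmu-miR-7081-3p included, ranged from 0.621 to 2.73 RPM in serum ES, from 0 to 4.34 in 2iL ES, from 0 to 1.86 in serum ELA and from 0 to 3.41 in 2iL ELA. The highest of them in serum ES was mmu-miR-6913-3p, with 22, 9, 2 and 0 reads in these libraries, and the highest in 2iL ES was mmu-miR-6967-3p, with 16, 12, 5 and 1 reads. mmu-miR-6979-3p led them in serum ELA, with 21, 11, 8 and 0 reads.

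At the threshold, 0.5 RPM in serum ES meant at least 5 reads, since 4 reads gave 0.496 RPM and 5 gave 0.621 RPM. Of the members, 7 had exactly 5 reads, and 15 names below had 4. Just inside were mmu-miR-6900-5p, mmu-miR-6951-5p and mmu-miR-6956-3p at 0.621 RPM, and just outside mmu-miR-7048-3p, mmu-miR-7079-5p and mmu-miR-7093-3p at 0.496 RPM. mmu-miR-7036b-5p had 7 reads in serum ES and none in the other libraries. Of the 352 names below, 100 had 1 to 4 reads in serum ES, 62 had reads only in another library and 190 had 0 reads in all 4.

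Members with any read numbered 48, 44, 42 and 20 in serum ES, 2iL ES, serum ELA and 2iL ELA, and 18 had a read in all 4. Since depth differed, the expected number at the depth of 2iL ELA (587363 reads) was computed for each library. It was 26.7 members in serum ES, 29.8 in 2iL ES and 18.5 in serum ELA, beside the 20 observed in 2iL ELA. For all 400 names of the block, a count that does not depend on the serum ES threshold, it was 41.3, 66.3 and 30.2, beside 40. The comparator of 706 names outside the block gave 629, 613 and 598, beside 615. At one depth the block had the most names in 2iL ES. The comparator, chosen on serum ES, had the most there.

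The block as a whole took a small share of miRNA reads, highest in 2iL ES and lowest in serum ELA. All 400 names summed to 304 RPM in serum ES (95% Wilson interval 293 to 317), 488 in 2iL ES (463 to 515), 178 in serum ELA (165 to 191) and 296 in 2iL ELA (255 to 344). The 48 members summed to 278, 409, 156 and 259 RPM. The 46 members other than mmu-miR-7068-3p and mmu-miR-6944-3p summed to 67.1, 110, 42.5 and 47.7 RPM, which was 24.2, 26.8, 27.2 and 18.4% of the members' reads. These intervals, and all those below, cover counting error only.

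**Figure D3:**
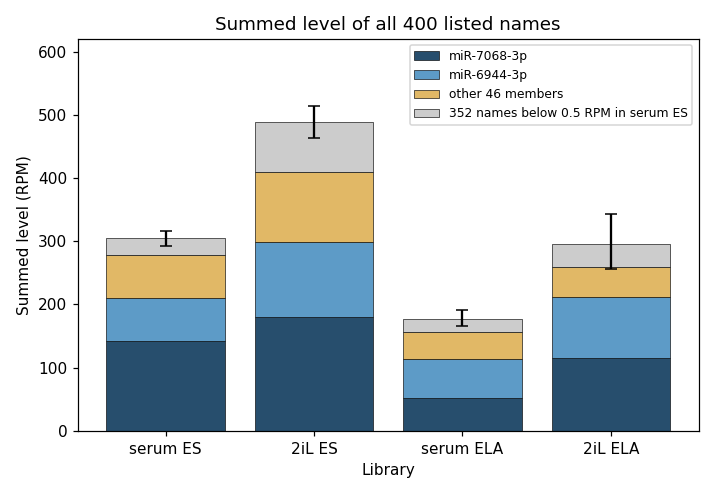
Summed level (RPM) of the 400 names of the block in each library, split into miR-7068-3p, miR-6944-3p, the other 46 members and the 352 names below 0.5 RPM in serum ES; the bars on top are 95% Wilson counting intervals of the total. The total is highest in 2iL ES (488 RPM) and lowest in serum ELA (178 RPM), and miR-7068-3p with miR-6944-3p make up most of every bar.

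The comparison of ELA with ES asks what changed when ES cells formed epiblast-like aggregates. In 2iL, where the rule used neither library, the summed block was lower in ELA by 0.72 on the log2 scale of shares (log2 ratio −0.72, exact 95% interval −0.96 to −0.49), from 488 to 296 RPM. The median of all 453 miRNAs with a mean of at least 10 RPM in that pair was itself −0.30, so relative to it the block was at −0.42 (−0.66 to −0.19). mmu-miR-7068-3p had a log2 ratio of −0.64 (−1.03 to −0.27) and mmu-miR-6944-3p of −0.31 (−0.75 to 0.10), an interval that includes no change. The other 46 members together had a log2 ratio of −1.20 (−1.81 to −0.64), from 303 to 28 reads. Relative to the median miRNA they were at −0.90 (−1.51 to −0.34). They were chosen on their level in an ES library, and what that choice adds to this difference was not tested. Markers of other cell types moved apart in the same pair: mmu-miR-133a-3p went from 0 to 71.5 RPM (0 to 42 reads) and mmu-miR-124-3p from 142 to 44.3 RPM, and their part in the block's difference was not tested.

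Among single members in that pair, 13 had at least 10 reads over both libraries. The counting interval lay below no change for 3 of them, mmu-miR-6896-5p, mmu-miR-6948-3p and mmu-miR-7068-3p, beside 36.2% of all 591 miRNAs read in the same way. Their upper limits were −0.03, −0.07 and −0.27, all above the median miRNA of the pair at −0.30, so none was clear of that median. In log2(RPM + 1) mmu-miR-7068-3p was at −0.34 relative to that median. Its difference was −0.39 when libraries were scaled by TMM factors in place of their totals. No member lay above no change, against 24.9% of all. By size alone, a difference of at least 1 in log2(RPM + 1) at a mean of at least 10 RPM, 0 of the 2 members abundant enough were lower (28.3% of 453) and 0 were higher (17.9%). The median difference of the 48 members in log2(RPM + 1) was −0.88, beside −0.30 for all miRNAs of at least 10 RPM. Many members had 0 reads in 2iL ELA, so this median depends on the low depth of that library.

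In serum the same comparison includes the library that chose the members and is a description. The summed block had a log2 ratio of −0.78 (−0.90 to −0.66) in ELA against ES, the median of all miRNAs being 0.01. mmu-miR-7068-3p was lower by size (log2(RPM + 1) difference −1.45), 1 of 2 members against 16.7% of all 431 miRNAs, and 0 were higher (9.98%). In this pair mmu-miR-133a-3p went from 10.4 to 46.6 RPM and mmu-miR-124-3p from 68.9 to 45.3 RPM. mmu-miR-6944-3p had a difference of −0.14 in log2(RPM + 1), and 0.055 with DESeq2 factors, so no direction is given for it. By the counting interval 6 of 35 members were lower (33.9% of all) and 0 were higher (29.5%).

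The comparison of 2iL with serum asks what the medium of the ES cells had changed. Between the ELA libraries, neither used by the rule, the summed block was higher after 2iL, with a log2 ratio of 0.74 (0.49 to 0.98), or 0.41 (0.16 to 0.65) relative to the median miRNA at 0.33. mmu-miR-7068-3p stood at 51.5 RPM after serum and 116 RPM after 2iL, a log2 ratio of 1.17 (0.75 to 1.57). mmu-miR-6944-3p had a log2 ratio of 0.62 (0.17 to 1.04). Among markers of other cell types in this pair, mmu-miR-133a-3p went from 46.6 to 71.5 RPM and mmu-miR-9-5p from 246 to 218 RPM, and their part was not tested. The other 46 members showed no difference that the depth could resolve, with a log2 ratio of 0.17 (−0.46 to 0.75).

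By size, mmu-miR-7068-3p was the 1 member of 2 that was higher in 2iL ELA than in serum ELA, against 22.6% of 433 miRNAs, and 0 were lower (10.2%). Its difference was 1.15 in log2(RPM + 1), or 0.82 relative to the median, and 0 members passed when the libraries were scaled by TMM or DESeq2 factors in place of their totals. By the counting interval 2 of 6 members with enough reads were higher, mmu-miR-7068-3p and mmu-miR-6944-3p, against 37.6% of 582 miRNAs, and 0 were lower (16.3%). The interval of mmu-miR-6944-3p, 0.17 to 1.04, includes the median miRNA of the pair at 0.33. That of mmu-miR-7068-3p, 0.75 to 1.57, lies above it. Between the ES libraries, again a description, the summed block had a log2 ratio of 0.68 (0.58 to 0.78) and the median miRNA 0.51. Markers of other cell types moved apart here too, mmu-miR-9-5p from 356 to 156 RPM, mmu-miR-124-3p from 68.9 to 142 RPM and mmu-miR-133a-3p from 10.4 to 0 RPM, and their part was not tested. There the difference of mmu-miR-7068-3p was 0.34 in log2(RPM + 1), and it was −0.15 with TMM and −0.05 with DESeq2 factors, so no direction is given for it. By size 0 of 2 members were higher (34% of 453) or lower (16.3%), and by the counting interval 12 of 38 were higher (47.1%) and 0 lower (25.1%).

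**Figure D4:**
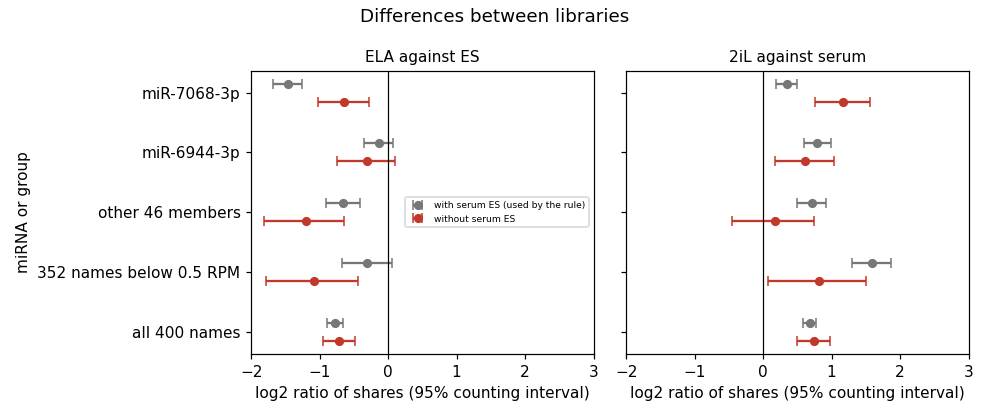
Log2 ratios of the share of miRNA reads (x axis) for the 2 abundant members, the other 46 members, the 352 names below 0.5 RPM and all 400 names, with 95% exact counting intervals; left, ELA against ES, and right, 2iL against serum. Pairs that include serum ES, which the rule used, are grey, and the pairs that leave it out are red. The red points of the ELA against ES panel all lie below 0, and in the 2iL against serum panel only the interval of the other 46 members includes 0 among the red ones.

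A fit with stage and medium as additive terms over 599 miRNAs (10 or more reads in 2 or more of the libraries) contained 10 members. limma called 0 of them for stage and 0 for medium after Benjamini-Hochberg adjustment, and 0% of the 599. At an unadjusted p below 0.05 it had 2 of the 10 members for stage and 3 for medium, beside 20.9% and 29.4% of the 599. edgeR on the reads called 6.51% of the 599 for stage and 10.7% for medium, and DESeq2 called 9.06% and 14.8% of those it adjusted. edgeR called 0 of the 10 members for either term, with 0 and 1 at an unadjusted p below 0.05, beside 127 and 154 of the 599. DESeq2 gave an adjusted p to 4 members for stage and 3 for medium and called 0 of them, with 0 at an unadjusted p below 0.05, beside 118 of 552 and 135 of 541 miRNAs. The fit has 1 library per combination and treats the departure from additivity as its error. It includes serum ES, the library that chose the members, so the counts of members are a description.

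The 3p arm was the main product of the block. Among hairpins with at least 10 reads, 3p exceeded 5p in 24 of 30 in serum ES, 12 of 17 in 2iL ES, 4 of 6 in serum ELA and 2 of 2 in 2iL ELA. Hairpins outside the block at the same minimum had 3p above 5p in 49.7, 49.5, 47.8 and 50% of cases. The 3p strands took 89.4, 85.8, 83.8 and 86.8% of the block's reads. Without mir-7068 and mir-6944 these shares were 65.5, 63.2, 54.9 and 55.1%. mir-7068 gave 1937 reads over the libraries, all on 3p (exact 95% interval of the 3p share 99.8 to 100%), and mir-6944 gave 1204 of 1205 on 3p. Both arms were members in 2 hairpins only, mir-6900 with 12 reads on 3p and 7 on 5p, and mir-7083 with 30 on 3p and 16 on 5p.

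**Figure D5:**
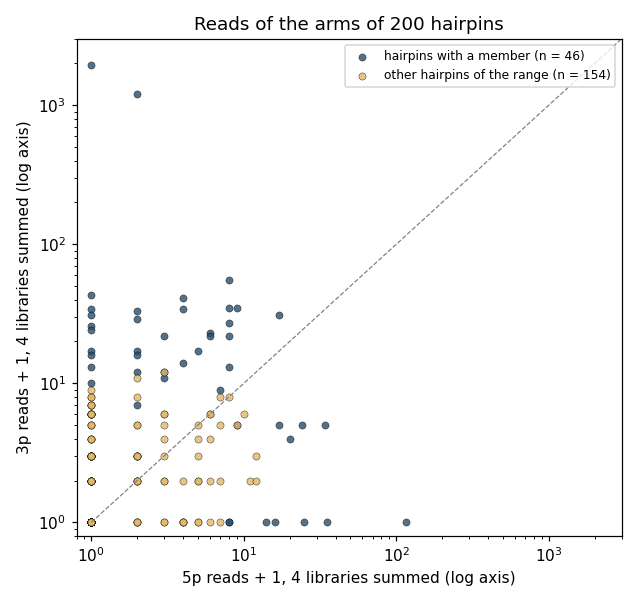
Reads of the 3p arm against reads of the 5p arm for the 200 hairpins of the block, each as reads + 1 summed over the 4 libraries, both on log axes, with the line of equal reads dashed. The 2 most abundant hairpins, with 1937 and 1204 reads on 3p, lie on the 3p side with 0 and 1 reads on 5p.

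Mirtrons with names outside the block were read for comparison, and mir-702 and mir-877 stood above most members. mmu-miR-702-3p measured 22.6 RPM in serum ES, 103 in 2iL ES, 13.0 in serum ELA and 52.8 in 2iL ELA. mmu-miR-877-5p measured 24.2, 129, 11.8 and 37.5 RPM and mmu-miR-877-3p 39.6, 51.3, 9.05 and 30.6 RPM. Each of these was lowest in serum ELA. mmu-miR-702-5p was lower, at 5.09, 2.53, 3.95 and 1.70 RPM. mmu-miR-1224-5p was at 1.12, 0, 6.27 and 1.70 RPM, highest in serum ELA, and mmu-miR-1224-3p had at most 2 reads in any library. The 34 3p names outside the block that end at an intron end summed to 170, 460, 118 and 179 RPM. In 2iL their log2 ratio of ELA to ES was −1.36 (−1.66 to −1.08), beside −0.72 for the block, a difference that was not tested. Between the ELA libraries their log2 ratio of 2iL to serum was 0.60 (0.28 to 0.90).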

How the data were processed

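The authors demultiplexed with CASAVA 1.8, trimmed with Trimmomatic, mapped with Bowtie to mm9, counted miRBase release 20 miRNAs with featureCounts and deposited RPM values. Other versions, strandedness and the handling of multiply mapping reads are not given in the sources used here. RPM values are shares of miRNA reads and not amounts per cell. Libraries came from the TruSeq Small RNA kit, without molecular identifiers. All 4 deposited columns were used, grouped by title. The description field exchanges 2iL ES and serum ELA, against titles, source names and column names.

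Reads were recovered from the RPM steps (100% of values whole within 0.01 read). The members and lists were chosen with earlier results of these data known. Differences used log2(RPM + 1), which understates changes of low miRNAs. Pairs of libraries had no test, only exact (Clopper-Pearson) intervals. The additive fit used limma 3.58.1 in R 4.3.3, since the values are RPM. edgeR 4.0.16 and DESeq2 1.42.0 on recovered reads were alternatives. The script was tested on simulated data. Named miRNAs were the 10 highest members by mean RPM over the libraries the rule did not use and the 5 highest in serum ES. They also included the 5 largest rises and falls in the pairs without serum ES, at a mean of at least 10 RPM. The 3 names nearest the threshold on each side, the other arms of all these, and mmu-miR-7068-3p were named too.

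Mature sequences came from RefSeq (GRCm38.p6). They were placed in mm9 by exact match of the hairpin, or of the mature sequence for 5 members, and read against GENCODE M1 introns. Alternatives were other pseudocounts, filters, scalings, read minimums and sets. Letter suffixes were counted within the block (8 names, 1 member).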

Additional observations from a re-analysis of the deposited data

How the results depend on the processing

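No paired analysis was possible because each group is 1 library and no groups share 2 replicate numbers, so leaving out a replicate was not possible either. The additive fit does set stage within medium. No value past the size limit changed sign. Below it, mmu-miR-7068-3p in 2iL ES against serum ES (0.34) was −0.15 with TMM and −0.05 with DESeq2 factors, and mmu-miR-6944-3p in serum ELA against serum ES (−0.14) was 0.055 with DESeq2 factors. Without the filter on low values, members past the size limit were counted beside the share of all 1202 miRNAs with a read. In serum ELA against serum ES, 6 of 48 members (12.5%) were lower, beside 9.73%, and 0 were higher, beside 5.66%. In 2iL ELA against 2iL ES, 3 (6.25%) were higher, beside 13.3%, and 23 (47.9%) were lower, beside 23.7%. In 2iL ES against serum ES, 8 (16.7%) were higher, beside 21.5%, and 3 (6.25%) were lower, beside 10.2%. In 2iL ELA against serum ELA, 6 (12.5%) were higher, beside 18.1%, and 8 (16.7%) were lower, beside 10.1%. Since 28 members had 0 reads in 2iL ELA, the counts with that library depend on its depth. With the filter, the 1 member higher in 2iL ELA against serum ELA became 0 with TMM and 0 with DESeq2 factors. The members' log2 ratio of summed shares moved as follows. In ELA against serum ES (−0.83) it was −0.53 without the most abundant member of each library. That member was mmu-miR-7068-3p in serum ES and mmu-miR-6944-3p in serum ELA, so the sets compared differed. The ratio was −0.64 with DESeq2 factors, −0.66 without the 2 abundant members and −0.55 for the block without them. In ELA against 2iL ES (−0.66) it was −0.41 with TMM, −1.20 without the 2 abundant members and −1.15 for the block without them. In 2iL ES against serum ES (0.56) it was 0.75 without the most abundant member of each library, mmu-miR-7068-3p in both. The ratio was 0.68 for the block, 0.066 with TMM, 0.16 with DESeq2 and 0.28 with totals lacking the 5 top miRNAs. It was 0.71 without the 2 abundant members and 1.01 for the block without them. In 2iL ELA against serum ELA (0.73) it was 0.38 with TMM, 0.37 with DESeq2, 0.17 without the 2 abundant members and 0.42 for the block without them. Leaving out the 2 abundant members was chosen after seeing the data. Without a filter limma called 2 of 48 members for stage (8.24% of 1202 miRNAs) and 2 for medium (10.8%). At 1 read or more, 3p exceeded 5p in 77 of 111, 71 of 112, 50 of 83 and 23 of 38 hairpins (libraries in the order serum ES, 2iL ES, serum ELA, 2iL ELA), and at 30 reads in 3 of 4, 2 of 2 and 2 of 3 in the first 3 libraries. Members expected with at least 3 reads at the lowest depth were 5.29, 11.0, 3.64 and 5, and names of the block with at least 1 read 41.3, 66.3, 30.2 and 40. The cause of these shifts was not tested. Depth limits 2iL ELA, where levels below 5.11 RPM rest on fewer than 3 reads.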

Other observations

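Some names of the block below 0.5 RPM in serum ES had more reads in 2iL ES, a library with fewer reads in all. They were chosen after their values were seen. mmu-miR-7046-3p had 0 reads in serum ES, 9 in 2iL ES, 1 in serum ELA and 1 in 2iL ELA. mmu-miR-7089-5p had 2, 9, 0 and 0 reads, and mmu-miR-7088-3p, from a hairpin that spans a whole 86-base intron of Mst1, had 0, 7, 0 and 0 reads. The 352 names together summed to 26.4 RPM in serum ES, 79.1 in 2iL ES, 21.3 in serum ELA and 37.5 in 2iL ELA. Their selection for a low level in serum ES bears on the first of these values. Between libraries that the rule did not use, their log2 ratio was −1.08 (exact 95% counting interval −1.78 to −0.44) for 2iL ELA against 2iL ES. It was 0.81 (0.07 to 1.49) for 2iL ELA against serum ELA. Relative to the median miRNA of each pair these were −0.78 (−1.48 to −0.14) and 0.48 (−0.26 to 1.16), the latter an interval that includes no change.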
